A study of Mus musculus with 24 samples.

Results

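The thymic niche genes examined here are the transcription factor Foxn1, the 4 ligands Cxcl12, Ccl25, Kitl and Dll4, and the 3 receptors Cxcr4, Ccr9 and Kit. All non-control probes that the array files assign to these 8 genes were taken, which gave 13 probes on 14 spots among 55681 probes of the array. Each probe is followed over all 8 groups of sorted mouse lymphoid cells. No probe of these genes passed the test between transgenic-thymus cells and their counterparts. In transgenic-thymus B cells, unadjusted p was under 0.05 for 4 of 11 tested member probes, against 16.5% of all tested probes. These were Kit and 3 Ccl25 probes, and the Ccl25 probes differed in direction. Only 2 arrays of transgenic-thymus B cells were measured.

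The groups were CD4/CD8 double-positive (DP) thymocytes of transgenic, Foxn1-deficient (-/-) thymus, called tg DP (4 arrays); stage 3 double-negative thymocytes, wt DN3 (3 arrays); wt DP (3 arrays); CD4 single-positive, wt SP4 (3 arrays); CD8 single-positive, wt SP8 (3 arrays); B cells without surface IgM of transgenic, Foxn1-deficient thymus, tg B IgM- (2 arrays); and B cells with and without surface IgM of wild-type fetal liver, FL B IgM+ and FL B IgM- (3 arrays each). The thymocytes called wt were heterozygous for Foxn1 (+/-), so no thymus group had 2 intact copies of the gene. The cell type label of the wt SP4 arrays names CD8 single-positive cells as well, and the group was taken from the sample title. The labels give neither the transgenes nor their promoter, nor age or strain, and none says whether arrays of a group stem from different animals; the p-values thus reflect array-to-array spread, which may be technical. The 2 wt DP arrays numbered 3 and 3A, and the 3 tg DP arrays numbered 6, 6A and 6B, share a title number and may be repeats. As background, the study behind these samples asked which niche components thymic epithelium needs to support lymphoid progenitors, and returned such ligands to Foxn1-deficient epithelium as transgenes.

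Foxn1 is the master regulator of thymic epithelial cells. Among the genes that depend on it are those of ligands that these cells present to blood-borne progenitors. Ccl25 and Cxcl12 are chemokines that bind Ccr9 and Cxcr4 on the progenitors and guide their entry and movement. Kitl, also called stem cell factor, binds the receptor tyrosine kinase Kit and promotes survival and proliferation, and Dll4 is the Notch ligand that directs progenitors to the T lineage. Lymphoid cells thus carry the receptors, while the ligands and Foxn1 belong to the stroma. The arrays measured the sorted lymphoid cells and not the epithelium, so a ligand probe here reports signal in the lymphoid RNA.

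Positions below are those of the array files in the mouse build mm9, and each probe is 60 bases long. Foxn1 had 1 probe (A_55_P1953172, chr11:78171867-78171926, minus strand). Kitl had 1 (A_55_P2001494, chr10:99558962-99559021), Dll4 had 1 (A_51_P384402, chr2:119160779-119160838) and Cxcr4 had 1 (A_52_P585124, chr1:130485079-130485138, minus strand). Kit had 1 probe spotted at 2 places of each array (A_66_P128434, chr5:76052394-76052453). Cxcl12 had a probe for transcript variant 3 (A_51_P172502, chr6:117131227-117131286) and one for variant 1 (A_55_P1966204, chr6:117125026-117125085). Ccr9 had a probe for variant 2 (A_52_P30312, chr9:123690334-123690393) and one from a neonate thymus cDNA (A_55_P2308239, chr9:123680935-123680994). The sources used here do not say whether these positions are exonic or lie in a UTR.

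Ccl25 was covered by 4 probes spread over 32143 bases of chromosome 8, and these 4 differed in behaviour, so their first 30 bases are shown, 5′ to 3′. A_51_P161265 (chr8:4359916-4359975) is annotated to transcript variant 1, A_66_P104618 (chr8:4348678-4348737) to an Ensembl transcript, A_55_P2027852 (chr8:4327833-4327892) to the non-coding variant 2, and A_55_P1965979 (chr8:4357861-4357920) to a small intestine cDNA. Capitals mark a GT repeat, which with its reverse complement CACACAC occurs in 1.81% of all probes.
Ccl25 A_51_P161265: gaggaacgagaggatagtgaGTGTGTGaga
Ccl25 A_66_P104618: aaacttgatgaccttactttgattccaagc
Ccl25 A_55_P2027852: aggcagaaggaaaatcaagtgggttccatc
Ccl25 A_55_P1965979: gatctactatcagcaaacagaaagtgtctt

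The receptor probes on which most of the results turn are shown in the same way, with bases 1 to 30 for Kit and Ccr9 and bases 27 to 56 for Cxcr4. Capitals mark AATAAA, the usual polyadenylation signal, which 10.1% of all probes hold on the printed strand. Among the 13 probes, the Cxcr4 probe and the dim Cxcl12 probe (bases 30 to 59) held it, which describes the letters only.
Cxcr4 A_52_P585124: tgtggtaaattgAATAAAgctagccgtgat
Ccr9 A_52_P30312: caggcaagaggcacttgctgcaggttctcc
Kit A_66_P128434: gtcaggtacttaaggggccacaccattgag
Cxcl12 A_55_P1966204: ttatttacctgaAATAAAatctactagttg

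Signals are given as log2 values relative to the 75th percentile of the same array, so a value of 0 is that percentile. Because probes differ in how well they bind, levels are compared between groups for 1 probe, never between probes. A probe was tested when it was well above background, by the scanner software's flag, on every array of at least 1 group, and 11 of the 13 were. The 2 that were not, Cxcl12 A_55_P1966204 (well above background on 10 of 24 arrays) and Ccr9 A_55_P2308239 (9 of 24 arrays), are given as values only. No member probe passed the F test for any difference among the 8 groups (limma, adjusted over all probes), against 0.102% of all tested probes. The smallest adjusted p was 0.35, for Ccl25 A_55_P1965979.

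The arrays varied in brightness, and tg B IgM- array 23 was the dimmest. On it 80.5% of spots were well above background, against 87.4% to 96.6% on the other 23 arrays. The lowest of those were FL B IgM+ 21 (87.4%), wt SP8 15 (87.4%) and tg DP 4 (87.9%). Median processed signal was 125 for tg B IgM- array 23 and between 208 and 314 for the rest. The sorted identities were visible in part. Tcf7, a T-lineage transcription factor, averaged -0.42 over wt thymocytes and -4.71 over FL B cells (4.28 ± 0.64 SE, adjusted p = 0.029, limma; 0.21 with slide as a block), whereas Cd3e, a T cell receptor subunit, averaged 0.52 to 0.90 in all 8 groups, B cells included. The 11 measured B lineage markers averaged between -0.16 and 0.35 on FL B IgM- arrays and between -0.90 and 0.10 on all others. Of 16 thymic epithelium markers, 13 to 16 were well above background on every array, B cells included. Their mean level ran from -1.87 to -0.63, and Prss16, a cortical epithelial protease, was not above background on any tg B IgM- or FL B IgM+ array. All 10 myeloid markers were well above background on every array (mean level 0.72 to 1.52), as were 5 to 8 of 8 hepatocyte markers. The part of such RNA in the member signals was not tested. In sorted bulk RNA, fewer cells with a transcript and less of it per cell cannot be told apart.

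Foxn1 is given first because it is the gene in which the genotypes differ. The probe read -0.11, 0.13, 0.05 and 0.27 in tg DP, against 0.23, 0.43 and 0.27 in wt DP. In B cells it read 0.18 and -0.85 in tg B IgM-, against -0.25, -0.08 and -0.41 in FL B IgM-. The Foxn1-deficient and Foxn1-bearing groups overlapped in both cell types, and the probe was well above background on all 24 arrays. The differences were -0.23 ± 0.24 (SE, adjusted p = 1.0) in DP cells and -0.09 ± 0.28 (adjusted p = 0.89) in B cells, by limma. What the mutation removes is not stated in the labels, so the probe is no check of the genotype.

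Across cell stages outside the transgenic thymus no Foxn1 difference passed the test. The probe read -0.08, -0.46 and 0.14 in wt DN3, 0.18, 0.42 and -0.36 in wt SP4, and -0.17, -0.07 and 0.02 in wt SP8. All 3 wt DP arrays lay above all wt DN3 and all wt SP8 arrays, with differences of 0.44 ± 0.25 for DP against DN3 and -0.38 ± 0.25 for SP8 against DP (adjusted p = 1.0 each, limma). Of all tested probes, 11.6% and 10.7% did not overlap in these comparisons. No slide held both wt DP and wt SP8 arrays, so stage and slide cannot be told apart there. In FL B IgM+ Foxn1 read -0.67, -0.12 and -0.45. Over all wt thymocytes Foxn1 averaged 0.05 and over FL B cells -0.33. The difference was 0.38 ± 0.15 (unadjusted p = 0.025, adjusted p = 0.33, limma). In this comparison cell type, organ and Foxn1 genotype change together and cannot be told apart. Only slide 1 held arrays of both sides, 1 of each.

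Cxcl12, the ligand of Cxcr4, passed the test in no comparison on its brighter probe. It read -1.03, -0.49, -0.99 and -1.09 in tg DP, against -0.81, -1.29 and -0.87 in wt DP. In tg B IgM- it read -1.43 and -1.32, against -1.04, -1.21 and -1.0 in FL B IgM-. Both tg B arrays lay below the 3 fetal liver arrays, a gap of -0.29 ± 0.32 (adjusted p = 0.66, limma). Of all tested probes, 33.3% did not overlap in that comparison. The wt SP4 arrays read -1.37, -1.37 and -1.39, below all wt DP arrays (-0.39 ± 0.29, adjusted p = 0.91). These groups did not overlap for 15.0% of all probes and shared no slide, so stage and slide cannot be told apart. The remaining arrays ran from -1.28 to -0.75 in wt DN3, from -1.65 to -0.69 in wt SP8 and from -2.07 to -0.78 in FL B IgM+. On the variant 1 probe the signal was not well above background on any tg B IgM- or wt DP array, and was so on 2 tg DP, 1 wt DN3, 1 wt SP4, 2 wt SP8, 2 FL B IgM+ and 2 FL B IgM- arrays.

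Ccl25, the ligand of Ccr9, had the steadiest and some of the least steady signals of the set, depending on the probe. A_51_P161265, the brightest, stayed between 3.88 and 4.42 on all 24 arrays, and its residual spread was smaller than that of all but 0.957% of tested probes. It read 4.28 and 4.40 in tg B IgM-, against 4.06, 4.06 and 4.42 in FL B IgM-, and 4.05 to 4.25 in tg DP, against 4.01 to 4.23 in wt DP. On this probe the differences were 0.16 ± 0.17 (adjusted p = 0.64) in B cells and 0.04 ± 0.14 (adjusted p = 1.0) in DP cells, by limma.

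On the other 3 Ccl25 probes tg B IgM- and FL B IgM- did not overlap, as for 33.3% of all tested probes, and the directions differed. A_66_P104618 read 0.65 and 1.26 in tg B IgM-, against -0.22, 0.12 and 0.10 in FL B IgM-. A_55_P2027852 read 0.32 and -1.45 in tg B IgM-, against -1.82, -2.71 and -1.66 in FL B IgM-. Both were higher in each tg B array, by 0.95 ± 0.43 (adjusted p = 0.28) and 1.51 ± 0.64 (adjusted p = 0.26, limma). The difference of A_55_P2027852 was 0.62 without array 22 and 2.39 without array 23, and passed in neither case. A_55_P1965979 read -6.78 and -7.32 in tg B IgM-, neither well above background, against -3.81, -4.78 and -3.15 in FL B IgM-. That is a signal at least 2.48-fold lower in tg B IgM-, a bound taken against the dimmest signal well above background on each tg B array (adjusted p = 0.16, limma). The 4 Ccl25 probes gave no common direction, and none of the 4 probes passed the test.

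In DP cells the same Ccl25 probes overlapped between niches. A_66_P104618 read -1.34, 0.16, -0.09 and 0.52 in tg DP, against -0.34, -0.02 and -0.16 in wt DP. A_55_P2027852 read -3.54, -2.66, -2.51 and -3.11 in tg DP, against -2.50, -1.79 and -2.98 in wt DP (-0.54 ± 0.54, adjusted p = 1.0, limma). A_55_P1965979 read -5.73, -3.11, -3.42 and -3.89 in tg DP, against -4.71, -3.75 and -4.15 in wt DP. The lowest value of A_66_P104618, A_55_P2027852 and A_55_P1965979 in tg DP came from 1 array each time, tg DP 4, which lay on another slide than the other 3. On the slide that held the other 3 tg DP and all wt DP arrays, the 3 probes differed by 0.37, -0.34 and 0.73. Their means there were 0.20 and -0.18, -2.76 and -2.42, and -3.47 and -4.20, tg DP first. Those 3 tg DP arrays share a title number, as do some of the wt DP arrays, and may be repeats.

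**Figure D1:**
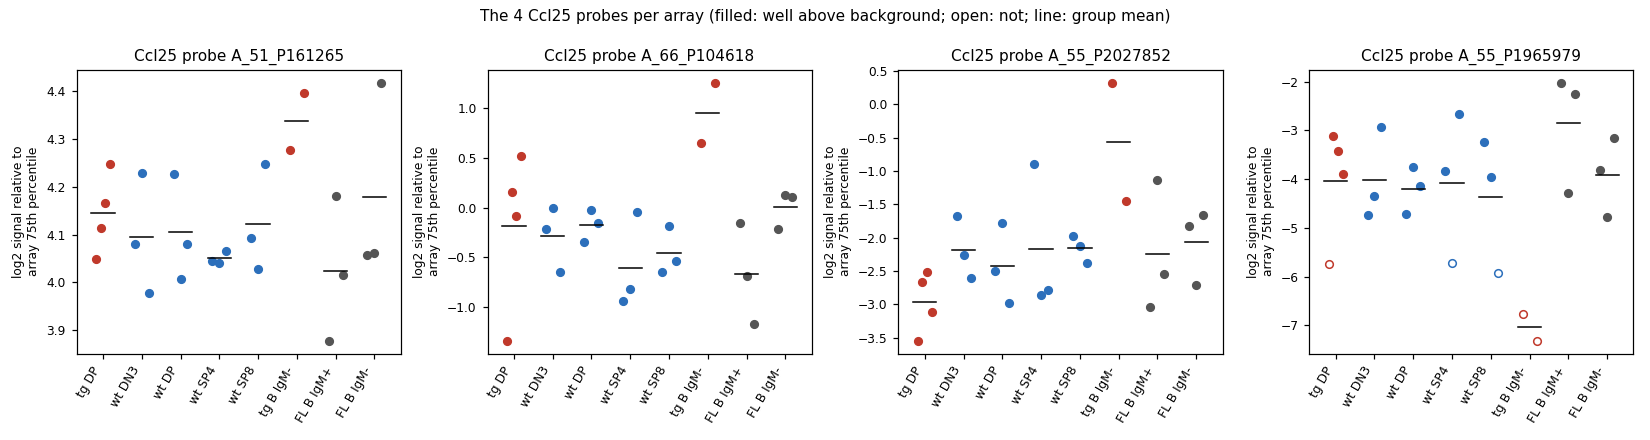
Log2 signal of the 4 Ccl25 probes on each array, relative to the array's 75th percentile, by group; filled points were well above background, open points were not, and lines are group means. A_51_P161265 stays between 3.88 and 4.42, while both tg B IgM- arrays are the highest on A_66_P104618 and the lowest on A_55_P1965979.

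Kitl, the ligand of Kit, was lowest in tg B IgM- and highest in FL B IgM+ by group mean. It read -0.31 and -0.52 in tg B IgM-, against 0.15, 0.29 and 0.08 in FL B IgM-. The groups did not overlap, as for 33.3% of all tested probes. The difference of -0.59 ± 0.29 did not pass the test (adjusted p = 0.31, limma). Among fetal liver B cells Kitl read 0.53, 0.47 and 0.88 in FL B IgM+, above all FL B IgM- arrays. These groups did not overlap for 14.0% of all tested probes. The Kitl difference was 0.45 ± 0.26 (adjusted p = 0.73, limma). In tg DP Kitl read 0.45, -0.10, 0.28 and 0.63, against 0.36, 0.13 and -0.03 in wt DP, which overlapped. Kitl ran from -0.18 to 0.13 in wt DN3, from -0.74 to 0.39 in wt SP4 and from -0.14 to 0.39 in wt SP8. Over all wt thymocytes it averaged 0.06 and over FL B cells 0.40 (-0.34 ± 0.16, unadjusted p = 0.042, adjusted p = 0.39), and the sign turned to 0.20 with slide as a block.

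Dll4, the Notch ligand, was almost level, with group means between 0.98 in wt SP4 and 1.39 in FL B IgM+. It read 0.94, 0.99, 1.18 and 1.28 in tg DP, against 1.08, 1.05 and 1.12 in wt DP (0.02 ± 0.22, adjusted p = 1.0, limma). It read 1.12 and 1.20 in tg B IgM-, against 1.09, 1.39 and 1.13 in FL B IgM-. The widest group was FL B IgM+, with 0.74, 1.54 and 1.90. The 95% interval of the tg DP difference, without adjustment over probes, ran from -0.44 to 0.48. Changes of the Dll4 signal within those bounds are not excluded by these arrays. The interval is no detection limit of the adjusted test.

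**Figure D2:**
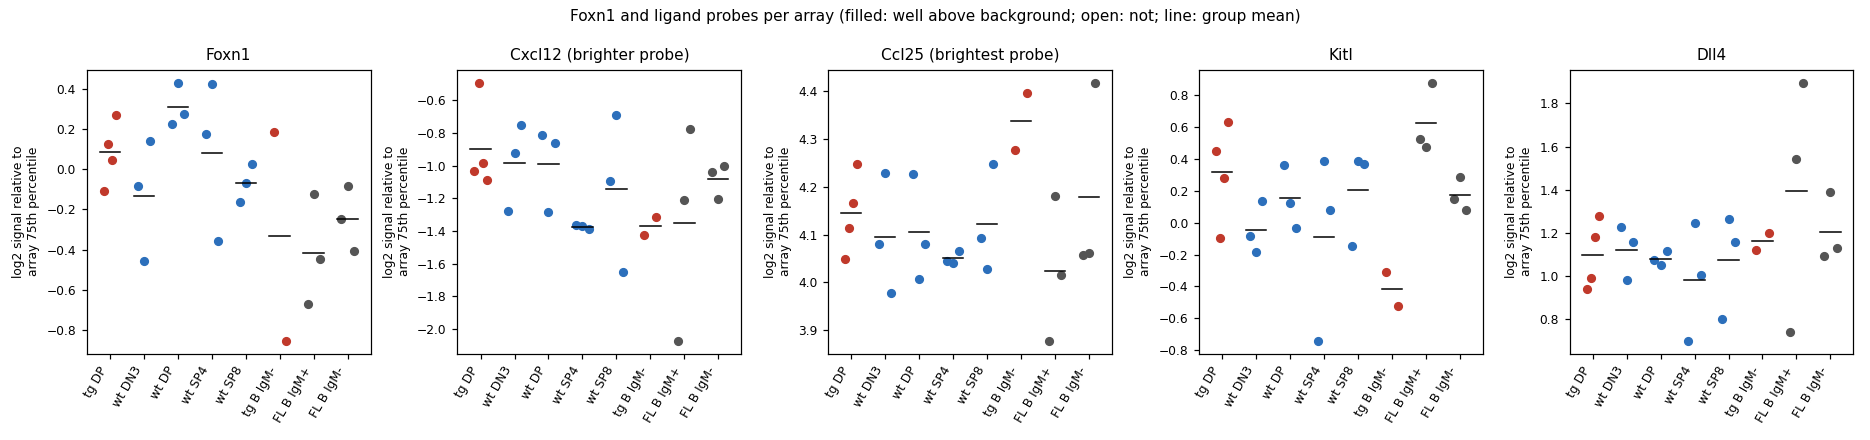
Log2 signal of Foxn1 and of the brightest probe of each ligand on each array, relative to the array's 75th percentile, by group; filled points were well above background and lines are group means. Tg DP and wt DP overlap on every panel, and Kitl reads -0.31 and -0.52 in tg B IgM- and 0.47 to 0.88 in FL B IgM+.

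Cxcr4, the receptor of Cxcl12, varied more between arrays of 1 group than between groups. It read -3.96, -1.53, -2.05 and -1.65 in tg DP, against -4.57, -2.42 and -1.83 in wt DP. It read -5.61 and 2.29 in tg B IgM-, against -1.44, -1.0 and -2.75 in FL B IgM-. The tg B arrays were the lowest and the highest of all 24, and array 22 was not well above background. Against the dimmest signal well above background on array 22, array 23 lay at least 7.66 higher on the log2 scale, while the median gap of these 2 arrays over all tested probes was 0.80. The differences were 0.64 ± 1.31 (adjusted p = 1.0) in DP cells and 0.08 ± 1.56 (adjusted p = 0.98) in B cells, by limma.

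The single-positive stages were the most even for Cxcr4, with -2.22, -2.72 and -2.88 in wt SP4 and -2.73, -2.44 and -2.75 in wt SP8. It read -2.65, -1.88 and -1.78 in wt DN3, which overlapped with wt DP (-0.84 ± 1.40 for DP against DN3, adjusted p = 1.0). In FL B IgM+ the arrays read -0.61, -3.78 and -5.11. The residual spread of Cxcr4 was larger than that of 97.3% of tested probes, and 95% intervals of its differences reached at least 1.80 on either side. Cxcr4 differences within such intervals are not excluded by these arrays, and the intervals are no detection limit of the adjusted test. On slide 2, which held 3 tg DP and 3 wt DP arrays, tg DP averaged -1.74 and wt DP -2.94, a gap of 1.20.

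Ccr9, the receptor of Ccl25, was highest by mean in wt DN3 and wt DP and lower in later thymocytes and B cells, but all neighbouring groups overlapped. On its brighter probe it read -1.17, -0.16, -0.71 and -0.83 in tg DP, against -0.19, -0.24 and -0.98 in wt DP. The difference was -0.25 ± 0.38 (adjusted p = 1.0, limma). It read -1.57 and -0.24 in tg B IgM-, against -1.05, -1.20 and -1.44 in FL B IgM- (0.32 ± 0.46, adjusted p = 0.74). The tg B arrays lay on both sides of the fetal liver arrays.

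Along thymocyte stages Ccr9 read -0.69, -0.27 and 0.22 in wt DN3, -0.65, -1.36 and -0.75 in wt SP4, and -0.80, -0.54 and -1.59 in wt SP8. Relative to wt DP the differences were -0.45 ± 0.41 for SP4 (adjusted p = 0.94) and -0.50 ± 0.41 for SP8 (adjusted p = 1.0). In FL B IgM+ it read -1.57, -1.20 and -0.23. Over all wt thymocytes Ccr9 averaged -0.65 and over FL B cells -1.11, a difference of 0.46 ± 0.25 (adjusted p = 0.49, limma). The second Ccr9 probe, A_55_P2308239, was well above background on 2 tg DP, 2 wt DN3, 1 wt DP, 2 wt SP4, 1 wt SP8 and 1 FL B IgM- arrays and on no tg B IgM- or FL B IgM+ array.

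Kit, the receptor of Kitl, lay between -1.76 and -0.81 on every array of the 7 groups other than tg B IgM-, and far above that on 1 tg B array. It read -0.81, -1.29, -1.24 and -1.48 in tg DP, against -1.55, -1.06 and -1.42 in wt DP. It read -1.03 and 1.58 in tg B IgM-, against -1.54, -1.31 and -1.41 in FL B IgM-. Both tg B arrays lay above the fetal liver arrays, array 22 by little and array 23 by far. Array 22 lay inside the range of the thymocyte groups. The tg B IgM- and FL B IgM- arrays did not overlap for 33.3% of all tested probes. The Kit difference of 1.69 ± 0.46 in B cells had an unadjusted p of 0.002 and did not pass adjustment (adjusted p = 0.13, limma). In DP cells the difference was 0.14 ± 0.38 (adjusted p = 1.0).

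The Kit signal of tg B IgM- array 23 appeared on both spots of the probe, with 1.54 on one and 1.63 on the other. Over the 24 arrays the Kit spots differed by a median of 0.07 and at most 0.23. The same array was the dimmest of the 24 and carried the highest Cxcr4 value and the lowest Foxn1 value, and the part of its brightness in these values was not tested. With array 23 left out, the Kit difference in B cells was 0.38, and with array 22 left out it was 3.00 (adjusted p = 4.7e-06), with the lone array's spread taken from the other groups. Without array 22, Cxcr4 was higher too, by 4.02 (adjusted p = 0.046), and without array 23 it did not pass the test. Without array 22 this comparison called 15.0% of all probes (7952, against 18 with both arrays), and without array 23 it called 12 probes and no member, so calls without array 22 are not particular to Kit or Cxcr4. Elsewhere Kit read -1.04, -1.45 and -1.58 in wt DN3, -1.76, -1.34 and -1.45 in wt SP4, -1.15, -1.21 and -1.52 in wt SP8, and -1.31, -1.28 and -1.33 in FL B IgM+.

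**Figure D3:**
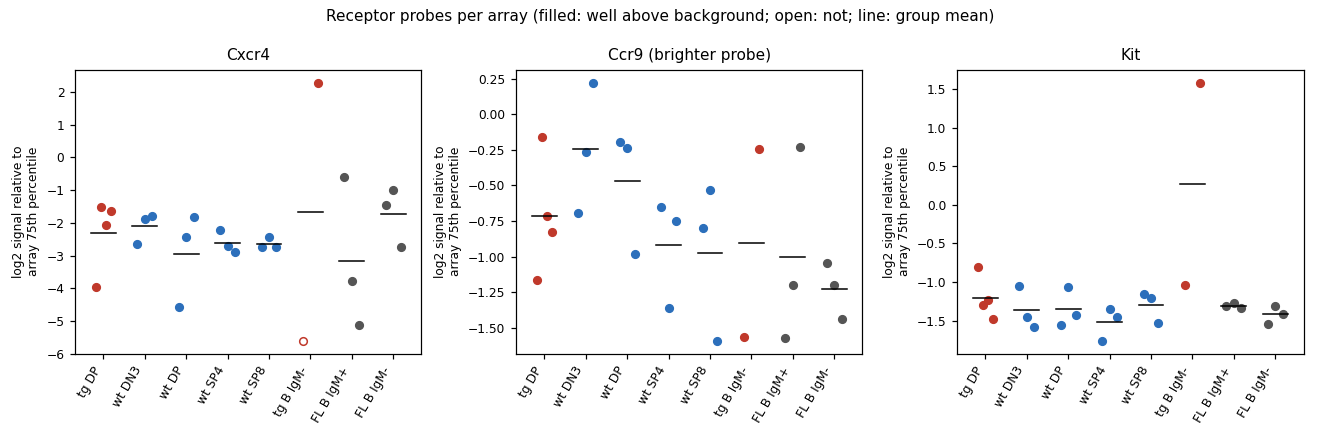
Log2 signal of the 3 receptor probes on each array, relative to the array's 75th percentile, by group; filled points were well above background, open points were not, and lines are group means. The tg B IgM- arrays lie at -5.61 and 2.29 for Cxcr4 and at -1.03 and 1.58 for Kit, and the other groups overlap with their neighbours.

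**Figure D4:**
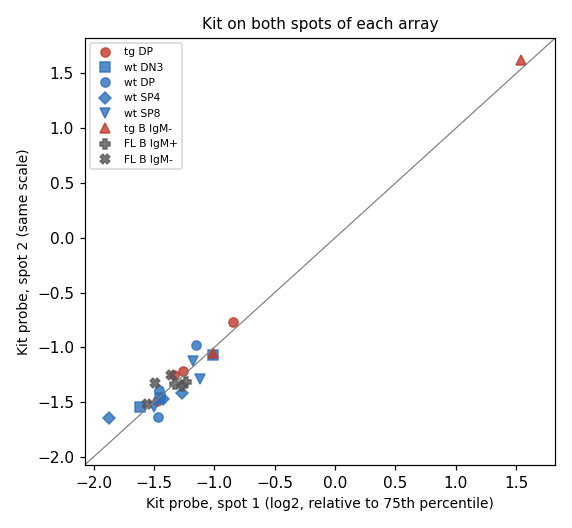
Log2 signal of the Kit probe on its first spot (x axis) and its second spot (y axis) of each array, relative to the array's 75th percentile; the line marks equal values. The array tg B IgM- 23 lies at 1.54 and 1.63 and the other 23 arrays lie below it near the line.

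The tg DP against wt DP comparison asks whether T-lineage precursors raised in the transgenic niche differ from those of a Foxn1-heterozygous thymus. Set side by side, it called 0 of 11 member probes, against 0% of all tested probes. By unadjusted p under 0.05, 0 member probes passed, against 3.15% of all. None of the 11 separated the groups without overlap, against 6.47% of all probes. Over the brightest probes the 95% intervals were narrowest for Ccl25 and widest for Cxcr4, so the bounds on a difference vary by gene. The median difference over all tested probes was -0.07.

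For tg B IgM- against FL B IgM-, the comparison of IgM-negative B cells between transgenic thymus and fetal liver, 0 of 11 member probes passed, against 0.0340% of all. Here niche, organ and Foxn1 genotype change together and cannot be told apart. All arrays of both groups lay on 1 slide. By unadjusted p under 0.05 there were 4 (Kit and the 3 Ccl25 probes other than A_51_P161265), against 16.5% of all probes. Groups did not overlap for 6 of the 11, against 33.3% of all. The median over all tested probes was -0.27 in this comparison, so a member at 0 lay above the middle of the array.

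**Figure D5:**
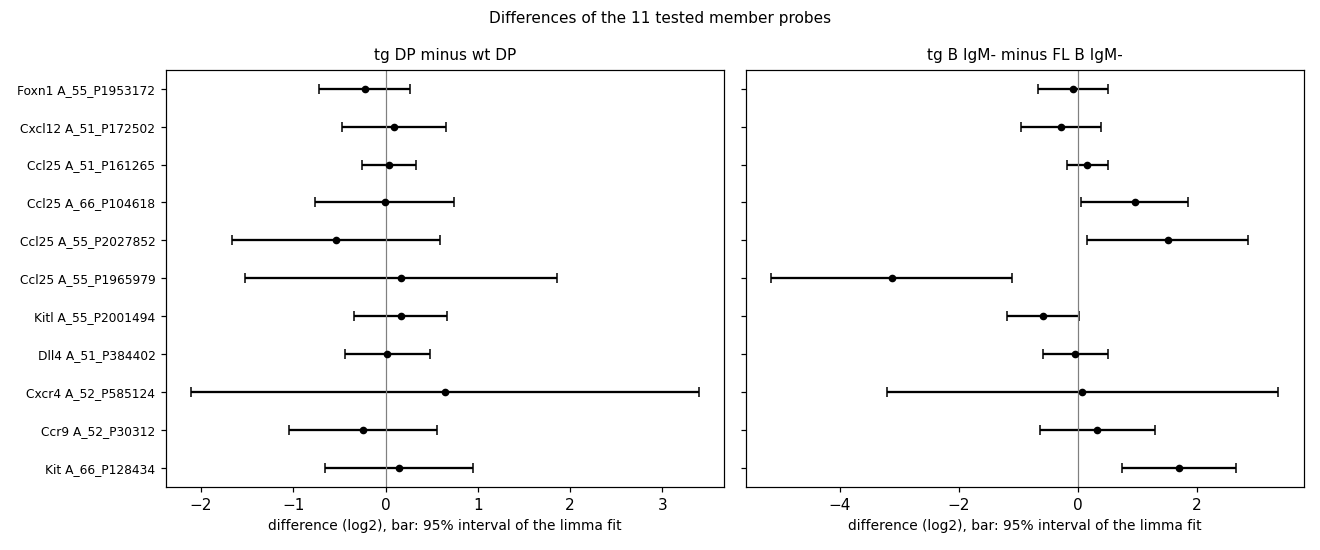
Difference on the log2 scale (x axis) of the 11 tested member probes for tg DP minus wt DP (left) and tg B IgM- minus FL B IgM- (right), with 95% intervals of the limma fit. Ccl25 A_55_P1965979 was not well above background on either tg B IgM- array, so its size on the right is no measured difference. On the left all 11 intervals cover 0; on the right those of Kit and of 3 Ccl25 probes do not, and none of the differences passes after adjustment.

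Within the transgenic thymus, tg DP against tg B IgM- called 0 of 11 member probes, against 1.43% of all. The tg DP arrays lay on slides 1 and 2 and the tg B IgM- arrays on slide 4. Cell type and slide thus cannot be told apart here. Ccl25 A_55_P2027852 came nearest, averaging -2.96 in tg DP and -0.56 in tg B IgM- (-2.40 ± 0.61, adjusted p = 0.055, limma). Kit averaged -1.21 in tg DP and 0.27 in tg B IgM- (-1.48 ± 0.43, adjusted p = 0.081), and 1 tg DP array lay above the lower tg B array. Unadjusted p was under 0.05 for 5 member probes, against 19.3% of all, and 6 did not overlap, against 20.1% of all. With arrays centred on their median instead, that Ccl25 probe passed (-2.67, adjusted p = 0.029), with 1096 probes called in all, against 760. Without tg B IgM- array 22 Kit, Cxcr4 and Foxn1 passed, where 17.4% of all probes did (9235). Without array 23 no member passed, with Kit at -0.17, and 31 probes were called in all.

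The difference between both contrasts, tg DP minus wt DP and tg B IgM- minus FL B IgM-, was tested as well, and 0 of 11 probes passed, against 0.00566% of all. The B cell contrast also changes organ, so this is no test of a niche effect that differs between lineages. Unadjusted p was under 0.05 for 3 members (Kit, Ccl25 A_55_P2027852 and Ccl25 A_55_P1965979), against 9.22% of all. The nearest were Ccl25 A_55_P1965979 (adjusted p = 0.46), for which no size is given because neither tg B IgM- array was well above background, and Kit, -1.55 ± 0.60 (adjusted p = 0.47, limma). Kit was -2.86 without tg B IgM- array 22 (adjusted p = 9.7e-05), where 7.92% of all probes passed (4195, against 3), and -0.24 without array 23 (adjusted p = 0.94).

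Outside the transgenic thymus, wt DP against wt DN3 and wt SP4 against wt DP each called 0 of 11 member probes. So did wt SP8 against wt DP, wt SP4 against wt SP8 and FL B IgM+ against FL B IgM-. Of all probes, 0% were called in each. No member had an unadjusted p under 0.05 in any of these, against 2.06%, 6.38%, 2.28%, 5.17% and 7.33% of all probes in that order. Groups did not overlap for 1 member in DP against DN3 and in SP8 against DP (Foxn1 in each), in SP4 against DP (Cxcl12) and in FL B IgM+ against FL B IgM- (Kitl), against 11.6%, 10.7%, 15.0% and 14.0% of all. Where a slide held both groups, Foxn1 differed by 0.39 in DP against DN3 (3 arrays and 1), and Kitl by 0.50 in FL B IgM+ against FL B IgM- (2 and 3) and by -0.53 in SP4 against SP8 (2 and 3). In FL B IgM+ against FL B IgM- on the shared slide, Cxcr4 differed by -2.71, against -1.43 over all arrays. Dll4 and Ccr9 each differed by 0.51 there. These gaps on 1 slide were not tested. No slide held wt DP arrays together with wt SP4 or wt SP8 arrays, so stage and slide cannot be told apart there. The nearest member in SP4 against SP8 was Kitl (-0.29 ± 0.26, adjusted p = 1.0, limma). For wt thymocytes against FL B cells 0 of 11 passed, against 0.0321% of all. There, 2 had an unadjusted p under 0.05 (Foxn1 and Kitl), against 12.0% of all. Cell type, organ and Foxn1 genotype change together in it, and only slide 1 held arrays of both sides, 1 of each.

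Summed over the 9 pairwise comparisons, the fitted differences of the brightest probe of each gene ranged as follows, as estimates without their errors. Foxn1 ran from -0.38 to 0.44, Cxcl12 from -0.39 to 0.47, Ccl25 from -0.19 to 0.16, Kitl from -0.59 to 0.73 and Dll4 from -0.23 to 0.19. Among the receptors, Cxcr4 ran from -1.43 to 0.64, Ccr9 from -0.50 to 0.46 and Kit from -1.48 to 1.69. None of these differences passed the test, and in order of the genes the lowest adjusted p were 0.33, 0.41, 0.53, 0.15, 0.55, 0.85, 0.49 and 0.081. Several of the comparisons share a group and are not independent.

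Other genes of the same pathways were counted from lists of niche ligands, niche receptors, Notch targets, and signal relays of Kit and of the chemokine receptors. Of 14 tested ligands (Il7 and Flt3l among those listed), 0 rose and 0 fell in any comparison. Of 14 tested receptors, Notch3 alone rose, in tg DP against tg B IgM-, averaging -0.77 in tg DP and -3.19 in tg B IgM- (2.42 ± 0.54, adjusted p = 0.036, limma). That comparison, whose groups share no slide, called 1.43% of all probes, and 0 with array weights. Notch3 was 3.99 without tg B IgM- array 22 and 0.86, not past the test, without array 23. Notch3 is a Notch receptor of developing thymocytes. Of 15 tested Notch targets and modulators, Il2ra alone changed, in the same comparison, with -3.15 in tg DP and -1.69 in tg B IgM- (-1.46 ± 0.35, adjusted p = 0.047), and it did not pass in 23 of 34 alternatives, against 12 of 34 for Notch3. Il2ra, the interleukin-2 receptor alpha chain, is also the CD25 marker of early thymocytes.

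No gene of the 17 of the Kit relay or the 17 of the chemokine receptor relay passed in any comparison. In wt thymocytes against FL B cells 15 Kit relay genes were higher and 2 lower (median 0.27, against 0.07 over all probes), with Stat5b nearest (adjusted p = 0.37, limma). In the same comparison 14 chemokine relay genes were higher and 3 lower (median 0.22). Rgs10, a regulator of G-protein signalling, was nearest (adjusted p = 0.056, limma). There, 8 T lineage markers were higher and 3 lower (median 0.31), and 10 niche ligands were higher and 4 lower (median 0.15). Of the B lineage markers, 2 were higher and 9 lower (median -0.32). Only slide 1 held arrays of both sides, 1 of each. In FL B IgM+ against FL B IgM- 1 chemokine relay gene was higher and 16 lower (median -0.45, against -0.17 over all probes), and 2 Kit relay genes were higher and 15 lower (median -0.37). Other lists ran the same way there, with 1 of 14 niche ligands higher and 13 lower (median -0.59), so this is not particular to the relays. Chemokine relay genes were higher for 13 and lower for 4 both in wt SP4 against wt DP (median 0.38, against -0.07 over all probes) and in wt SP4 against wt SP8 (median 0.28, against -0.04). T lineage markers ran the same way, with 10 higher and 1 lower in wt SP4 against wt DP (median 0.55). In wt SP4 against wt SP8, 9 were higher and 2 lower (median 0.28), so this is not particular to the relay. B lineage markers ran the other way, with 3 higher and 8 lower, and 5 higher and 6 lower. Both comparisons share the wt SP4 arrays, and no slide held both wt SP4 and wt DP arrays. In tg DP against wt DP the medians were -0.10 for the Kit relay and 0.05 for the chemokine relay, near the -0.07 of all probes.

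By likeness of the 8 group means (Pearson r over 8 groups, about 6941 candidate genes, a description with many candidates), Cxcr4 was nearest to Snx3 (0.97), Inpp5d (0.95) and Fam210b (0.91). Ccr9 was nearest to Fbxl12 (0.97), Alb (0.93) and Brd8dc (0.91), among 6942 candidates. Kit was nearest to Grin2d (0.98), Msrb3 (0.98) and Olfr876 (0.98), and without the tg B IgM- group these 3 values were 0.79, 0.20 and -0.04, so they rested on that group. The Cxcr4 and Ccr9 values without it ranged from 0.87 to 0.97. Neither of these 2 probes passed the F test (adjusted p = 0.98 for Cxcr4 and 0.70 for Ccr9, limma). The Ccr9 group means had an SD of 0.32, below the 0.5 asked of the candidates. The part of array-to-array spread in these values was not tested.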

How the data were processed

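RNA from sorted mouse lymphoid cells was profiled on 24 Agilent 1-colour arrays. Per the labels' protocols, cDNA was globally amplified by PCR before Cy3 labelling. Per the file headers, the deposited intensity values (processed signals, with spot background already subtracted) came from Feature Extraction 10.7.3.1 on mm9-annotated probes. The authors also deposited log2 values, used as an alternative; their columns have medians near 7.93, and the sources used here do not give their scaling. Here, log2 processed signal minus each array's 75th percentile was used, spots of a probe were averaged, and 248 non-uniform values were set missing. Probes flagged well above background throughout at least 1 group were tested in 1 fit of all arrays (limma 3.58.1, R 4.3.3; lmFit, eBayes, no covariate), with Benjamini-Hochberg adjustment over all tested probes and a threshold of 0.05, two-sided. The fit was tested on simulated data. The number of arrays limits the precision. The members and gene lists were chosen with earlier results of these data known. The rule for named genes asked for the differences of each gene's brightest probe in every comparison. Because none passed the test, those not printed singly are given as a range per gene. A gene of a list was represented by its brightest probe. Of the probes, 26762 were named through accessions of GRCm38 RefSeq annotation, 3819 through symbols, and 25100 kept the file's name. Alternatives covered background correction, scaling, the authors' values, the dim-probe filter, slide, shared title numbers, weights, the groups in the fit, and left-out arrays. No genome was used, so whether a probe lies in an exon, intron or UTR was not looked up.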

Additional observations from a re-analysis of the deposited data

How the results depend on the processing

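Across 34 alternatives, the count of member probes called stayed at 0 for tg DP against wt DP and all 4 comparisons among wt thymocytes. It also stayed at 0 for FL B IgM+ against FL B IgM- and for wt thymocytes against FL B cells. The alternatives used the same 11 member probes (13 with no filter on dim probes), with 1 exception. Where only the groups of a comparison were fitted, the filter was remade on them. That left out Ccl25 A_55_P1965979 in tg DP against tg B IgM-, for example. For tg DP against tg B IgM- it was 1 with median scaling (Ccl25 A_55_P2027852) and 0 to 3 with 1 array left out: 1 without wt SP4 array 10, FL B IgM+ array 19 or FL B IgM+ array 20 (the same probe, adjusted p = 0.040, 0.047 and 0.042, limma), and 3 without tg B IgM- array 22. Leaving out 1 array gave 0 to 2 for tg B IgM- against FL B IgM-, 0 to 1 for the difference between the DP and the B cell contrasts, and 0 to 1 for the F test, the highest each time without tg B IgM- array 22. Of 1020 single differences over the alternatives, 994 kept direction and side of the threshold and 18 changed sign, each for a difference that had not passed. Ccl25 A_51_P161265 in tg B IgM- against FL B IgM- was -0.015 with quantile normalization and -0.020 on the authors' deposited log2 values; Ccr9 in wt DP against wt DN3 was 0.082 and Kitl in wt thymocytes against FL B cells 0.20 with slide as a block; and Cxcr4 in tg DP against wt DP was -0.0398 with arrays sharing a title number averaged. Cxcr4 in tg B IgM- against FL B IgM- was -0.15 with array weights and -3.87 without tg DP 4, tg B IgM- 23 and FL B IgM+ 21, which leaves tg B IgM- only array 22, not well above background for Cxcr4; Ccr9 was -0.34 there. With 1 array left out, the differences that changed sign ran from -0.34 to 0.99 (Ccr9) and -3.87 to 4.02 (Cxcr4) in tg B IgM- against FL B IgM-, from -0.45 to 0.031 (Ccr9, wt DP against wt DN3), from -0.17 to 1.20 (Cxcr4, tg DP against wt DP), from -0.61 to 0.52 (Cxcr4, wt thymocytes against FL B cells) and from -0.53 to 0.031 (Kitl, wt SP4 against wt SP8). The cause was not tested. No paired analysis was possible because the groups share no replicate numbers in the labels.

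Counts over all probes, against which the members were read, depended more on the setting. For tg DP against tg B IgM- they ran from 0 (array weights) to 1096 (median scaling) and from 31 to 9235 with 1 array left out, against 760, and 34.2% were higher with median scaling, against 66.4%. For tg B IgM- against FL B IgM- they ran from 0 to 97, and from 7 to 7952 with 1 array left out, against 18, with 55.6% higher under median scaling, against 33.3%. For wt thymocytes against FL B cells they ran from 4 to 131, and from 0 to 192, against 17; for the F test from 11 to 683, and from 16 to 3820, against 54; and for the difference between the contrasts from 0 to 4, and from 0 to 4195, against 3. The comparisons that called 0 ran up to 51 (wt SP4 against wt DP). Signals near background limit Cxcl12 A_55_P1966204, Ccr9 A_55_P2308239 and Ccl25 A_55_P1965979, whose levels moved with normexp background correction.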
